A study of Mus musculus with 12 samples.

Results

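The proteasome subunit genes were taken as all genes whose symbol begins with Psm followed by a letter from a to g and that have a microarray probe set annotated to that symbol alone. The rule found 47 genes among 11015, covered by 77 of 20523 probe sets. Of these, 31 encode constitutive subunits of the 20S core or the 19S regulatory particle, and 4 are interferon-inducible (Psmb8, Psmb9, Psmb10 and Psme1). The others are 7 assembly chaperones, the activators Psme3 and Psme4, the inhibitor Psmf1, and Psmc3ip and Psme3ip1, which match the rule by name but are not subunits. The remaining inducible gene, Psme2, shares its probe set with Psme2b and is therefore not among the 47.

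The proteasome is the large protease that degrades ubiquitin-tagged proteins in the cytosol and nucleus. Its barrel-shaped 20S core holds the catalytic beta subunits between rings of alpha subunits, and the 19S particle, built from a base with ATPases and a lid, receives the tagged protein, removes the ubiquitin and unfolds the chain. Under interferon, many cells, endothelium among them, replace the catalytic subunits Psmb5, Psmb6 and Psmb7 with Psmb8, Psmb9 and Psmb10 to form the immunoproteasome, and make the activator of Psme1 and Psme2, which alters the peptides supplied to MHC class I.

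The data are Affymetrix expression values, on a log2 scale, of cultured endothelial cells from the aorta of mice aged 4 weeks, arranged in 4 groups that vary the ETS transcription factors Ets1 and Ets2. WT cells (Ets1+/+; Ets2+/+) and Ets1KO cells (Ets1-/-; Ets2fl/fl) carried a lentivirus for eGFP. Ets2KO cells (Ets1+/+; Ets2fl/fl) and the cells labelled DKO (Ets1-/-; Ets2fl/fl) carried a lentivirus for eGFP and Cre. The 4 groups have 3 columns each, called biological replicates in their titles, and nothing else says that they came from separate animals, so p-values may measure technical spread. Cre expression cannot be told apart from deletion of Ets2, and Ets1KO differs from WT in its unrecombined floxed Ets2 alleles too. The short descriptions of Ets1KO and Ets2KO call them wild type, against their titles and genotypes, which were followed. The promoter that drives Cre is not stated.

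Several facts about the arrays bear on every value. In 20521 of 20523 probe sets the DKO column numbered 3 equals the average of the other DKO columns (tolerance 1e-05), and it was left out, so 11 arrays remain and DKO has n = 2. The medians over all probe sets were 8.28 to 8.30 in the DKO columns and 9.05 to 9.15 in the others. Values are therefore given relative to array medians, that is, after subtracting each array's median over the 11015 tested genes, and differences are also given as deposited. The 2 scales differ by about the gap between the medians, and what produced that gap cannot be told apart from the group. The difference of Ets1 itself between Ets1KO and WT was -1.35 (SE 0.23, adjusted p = 0.151), and Ets2 differed by -0.43 in Ets2KO (SE 0.35, adjusted p = 0.544). On the brightest probe sets the arrays labelled DKO go against their label, since they exceeded Ets1KO by 2.17 for Ets1 (SE 0.25, limma adjusted p = 0.000713, 1.41 as deposited) and exceeded Ets2KO by 1.33 for Ets2 (SE 0.40, adjusted p = 0.0325, 0.62 as deposited). The other probe sets of these genes were mixed. On another for Ets1 the DKO arrays read 1.08 and 1.12, also above Ets1KO (-1.34 to -0.56). On a further Ets1 probe set they read -1.33 and -0.71, again above Ets1KO (-2.52 to -1.54). On the last for Ets1 the DKO arrays read -2.25 and -1.64, below WT (-0.68 to -0.65) and reaching below Ets1KO (-1.75 to -0.90). On the other probe set for Ets2 they read -0.37 and -1.66 and overlapped Ets2KO (-1.80 to -1.63). Where these probe sets lie relative to the deleted parts is not stated. "DKO" below means the arrays labelled so. Of 13 endothelial marker genes listed, 3 were measured, and Kdr, the main VEGF receptor, lay 1.77 to 2.45 below the median in all 11 arrays; the mean of the 3 ran from -1.84 to -0.26. By correlation over all genes, 10 of the 11 arrays were nearest to one of their own group, the exception being WT replicate 3. In bulk samples, fewer cells of a type and less RNA per cell cannot be told apart.

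Because the study varies ETS factors, the promoters were read first. RefSeq promoter windows (GRCm38.p6) were found for 40 of the 47 genes, and none for Psmb1, Psmb2, Psmb7, Psmc3, Psmd3, Psmd7 and Psmg2. The 250 bases before the gene start were searched on both strands for CCGGAA, a form of the site that ETS proteins bind. The longer CCGGAAGT, which contains it, was searched too. Other forms of ETS site were not searched. CCGGAA stood in 18 of the 40 promoters (45%), against 25.9% of 8921 tested genes with a window and 13.6% of all 27025 genes with one. It stood in 12 of 25 constitutive subunit promoters (48%) and in 0 of 4 inducible ones. CCGGAAGT was found in 5 of 40 (12.5%), those of Psmc1, Psmc2, Psmd6, Psmd12 and Psme4, against 6.93% of the tested genes. The interferon-stimulated response element core GAAA, any 2 bases, GAAA was in 3 of 40 (7.5%, against 2.96%), namely Psmb3, Psmd4 and Psmd9, and in 0 of the 4 inducible promoters. The antioxidant response element core TGANNNNGC, bound by the Nfe2l1 and Nfe2l2 factors, was in 16 of 40 (40%, against 41.2%). A match is a description of letters and no evidence of binding, and a missing match says only that the letters are not in that window.

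The windows below, chosen after the expression values were seen, show the gene with the largest fall in DKO (Psmd13), promoters with the long ETS match (Psmc1 and Psmd12), a gene that fell with no match (Psma7) and an inducible gene (Psmb9). Sequences run 5′ to 3′ in the direction of the gene and end at the base before its start. Capitals mark CCGGAA or CCGGAAGT, or their reverse complements.
Psmd13, chr7:140882144-140882393 (+ strand): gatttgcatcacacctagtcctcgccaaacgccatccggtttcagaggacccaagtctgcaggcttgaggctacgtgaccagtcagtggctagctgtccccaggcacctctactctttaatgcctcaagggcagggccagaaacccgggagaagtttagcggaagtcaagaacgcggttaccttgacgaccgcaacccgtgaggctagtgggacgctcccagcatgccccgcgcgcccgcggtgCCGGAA
Psmc1, chr12:100109952-100110201 (+ strand): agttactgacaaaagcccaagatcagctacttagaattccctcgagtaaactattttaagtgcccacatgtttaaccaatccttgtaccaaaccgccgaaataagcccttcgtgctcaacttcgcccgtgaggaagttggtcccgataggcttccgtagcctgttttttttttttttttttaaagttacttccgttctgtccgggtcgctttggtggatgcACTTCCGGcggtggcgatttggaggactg
Psmd12, chr11:107479278-107479527 (+ strand): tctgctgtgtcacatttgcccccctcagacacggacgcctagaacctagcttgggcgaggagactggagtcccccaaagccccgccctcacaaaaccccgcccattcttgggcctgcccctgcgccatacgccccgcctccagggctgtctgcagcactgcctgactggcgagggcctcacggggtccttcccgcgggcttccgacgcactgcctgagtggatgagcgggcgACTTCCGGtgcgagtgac
Psma7, chr2:180042465-180042714 (- strand): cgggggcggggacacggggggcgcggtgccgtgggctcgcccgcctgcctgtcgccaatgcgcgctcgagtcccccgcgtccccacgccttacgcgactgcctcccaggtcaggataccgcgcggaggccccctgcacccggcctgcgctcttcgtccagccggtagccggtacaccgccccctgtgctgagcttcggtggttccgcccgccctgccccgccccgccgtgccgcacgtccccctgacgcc
Psmb9, chr17:34187331-34187580 (- strand): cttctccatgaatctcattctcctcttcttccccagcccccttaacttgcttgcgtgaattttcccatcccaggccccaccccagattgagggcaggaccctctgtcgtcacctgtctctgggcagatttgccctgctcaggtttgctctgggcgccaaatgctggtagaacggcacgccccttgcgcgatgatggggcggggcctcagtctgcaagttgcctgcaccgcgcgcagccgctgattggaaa
In Psmd13 the match begins 6 bases before the gene start, on the gene's own strand, and it fills the last bases of the window. In Psmc1 and Psmd12 the long match lies on the opposite strand and begins 29 and 18 bases before the start. The Psma7 and Psmb9 windows hold neither form. On chromosome 17 RefSeq places Psmb9, Tap1, Psmb8 and Tap2 as neighbours in that order, so these immunoproteasome genes lie among those of the peptide transporter Tap1 and Tap2.

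Loss of Ets1 alone left the proteasome genes near their WT values. None of the 47 passed the limma test at an adjusted p below 0.05, where 0.00908% of all genes (1 gene) did, and 3 of the 47 had an unadjusted p below 0.05 (959 of 11015 genes did), namely Psmb2 (-0.41), Psmd2 (-0.40) and Psma4 (-0.30). Differences from WT ranged from -0.41 to 0.66, with a median of -0.02 against -0.03 over all genes, and 28 of 47 lay below 0 (53.8% of all genes did). The 31 constitutive subunits had a median of -0.05, the 7 alpha ring genes -0.10, the 7 constitutive beta ring genes 0.00, the 6 ATPases -0.03 and the 8 lid genes -0.04. The largest differences were those of Psmb9 and of Psmg2, a chaperone of alpha ring assembly. Psmg2 read 1.67, 1.5 and 2.03 in WT and 2.27, 1.95 and 2.32 in Ets1KO, so the groups overlapped by a little (0.45, SE 0.21, adjusted p = 0.583). The groups did not overlap for 8 of 47 genes (17%), against 18.5% of all genes.

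The Ets2KO arrays lay slightly below WT across nearly the whole set, by amounts too small to pass the test for any single gene. None of the 47 was called (background 0.436%, 48 genes), and 6 had an unadjusted p below 0.05, where 2082 of 11015 genes did. Yet 45 of 47 differences were below 0, the exceptions being the non-subunits Psmc3ip (0.22) and Psme3ip1 (0.16), where 5588 of all 11015 genes (50.7%) lay below 0. All 31 constitutive subunits lay below 0 before rounding, from -0.47 to 0.00, with a median of -0.22 against -0.01 over all genes. As deposited the median was -0.24 and again all 31 were below 0 (52.4% of all genes on that scale). The groups did not overlap for 21 of the 47 genes (44.7%, against 26.9% of all genes), among them 6 of the 7 alpha ring genes.

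The mean over the 31 constitutive subunits was 2.82, 2.81 and 2.71 in the WT arrays and 2.68, 2.62 and 2.33 in the Ets2KO arrays. Every Ets2KO array lay below every WT array, and Ets2KO replicate 3 was the lowest by some distance. Without that array the median difference was -0.16 and 27 of 31 subunits lay below 0, and over the other alternatives it ranged from -0.29 to -0.19. The subunits share these few arrays, so their common sign is not 31 separate observations. Of the pericyte marker list (4 of 6 measured) none was called, all 4 differences were above 0, and the arrays overlapped, averaging 1.15, -0.01 and 1.97 in the Ets2KO arrays against -1.0, 0.19 and -1.06 in WT, and the fibroblast list (5 of 6 measured) averaged 0.37, 0.11 and 0.89 against 0.74, 0.95 and 0.69. Their part in the subunit values was not tested.

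By role, the medians were -0.23 for the alpha ring, -0.25 for the constitutive beta ring, -0.22 for the ATPases and -0.22 for the lid. The largest difference among the 47 was that of Psme4, the large single-chain activator PA200. It read 2.01, 1.80 and 2.39 in WT and 1.34, 1.42 and 1.76 in Ets2KO, with all 3 Ets2KO arrays the lower (-0.56, SE 0.23, adjusted p = 0.235). Its other probe sets gave -0.71 and -0.63. Psma1, of the alpha ring, read 2.37, 2.36 and 2.47 in WT and 2.03, 2.03 and 1.73 in Ets2KO, and had the smallest unadjusted p of the members, 0.00647 (-0.47, SE 0.13, adjusted p = 0.127), but its second probe set gave 0.67.

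Set directly against Ets1KO, the Ets2KO arrays gave 0 calls among the 47 (background 3.4%) and 9 genes with an unadjusted p below 0.05 (2501 of 11015 genes did). Of the 47 differences 39 were below 0 (46.6% of all genes), with a median of -0.19 against 0.03 over all genes, and the groups did not overlap for 15 of 47 (31.9%, against 35.4%). The largest were -0.73 for Psmb9 and -0.59 for Psmg4, a chaperone of the alpha ring, which read 0.22, 0.14 and 0.76 in Ets2KO and 0.96, 0.93 and 0.98 in Ets1KO (SE 0.24, adjusted p = 0.187). With limma's array weights, 13 of the 47 were called in this comparison and 1, Psmb10, in that of Ets2KO with WT. The share of all genes called in the weighted fit is not given, so these counts are read against no background.

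**Figure D1:**
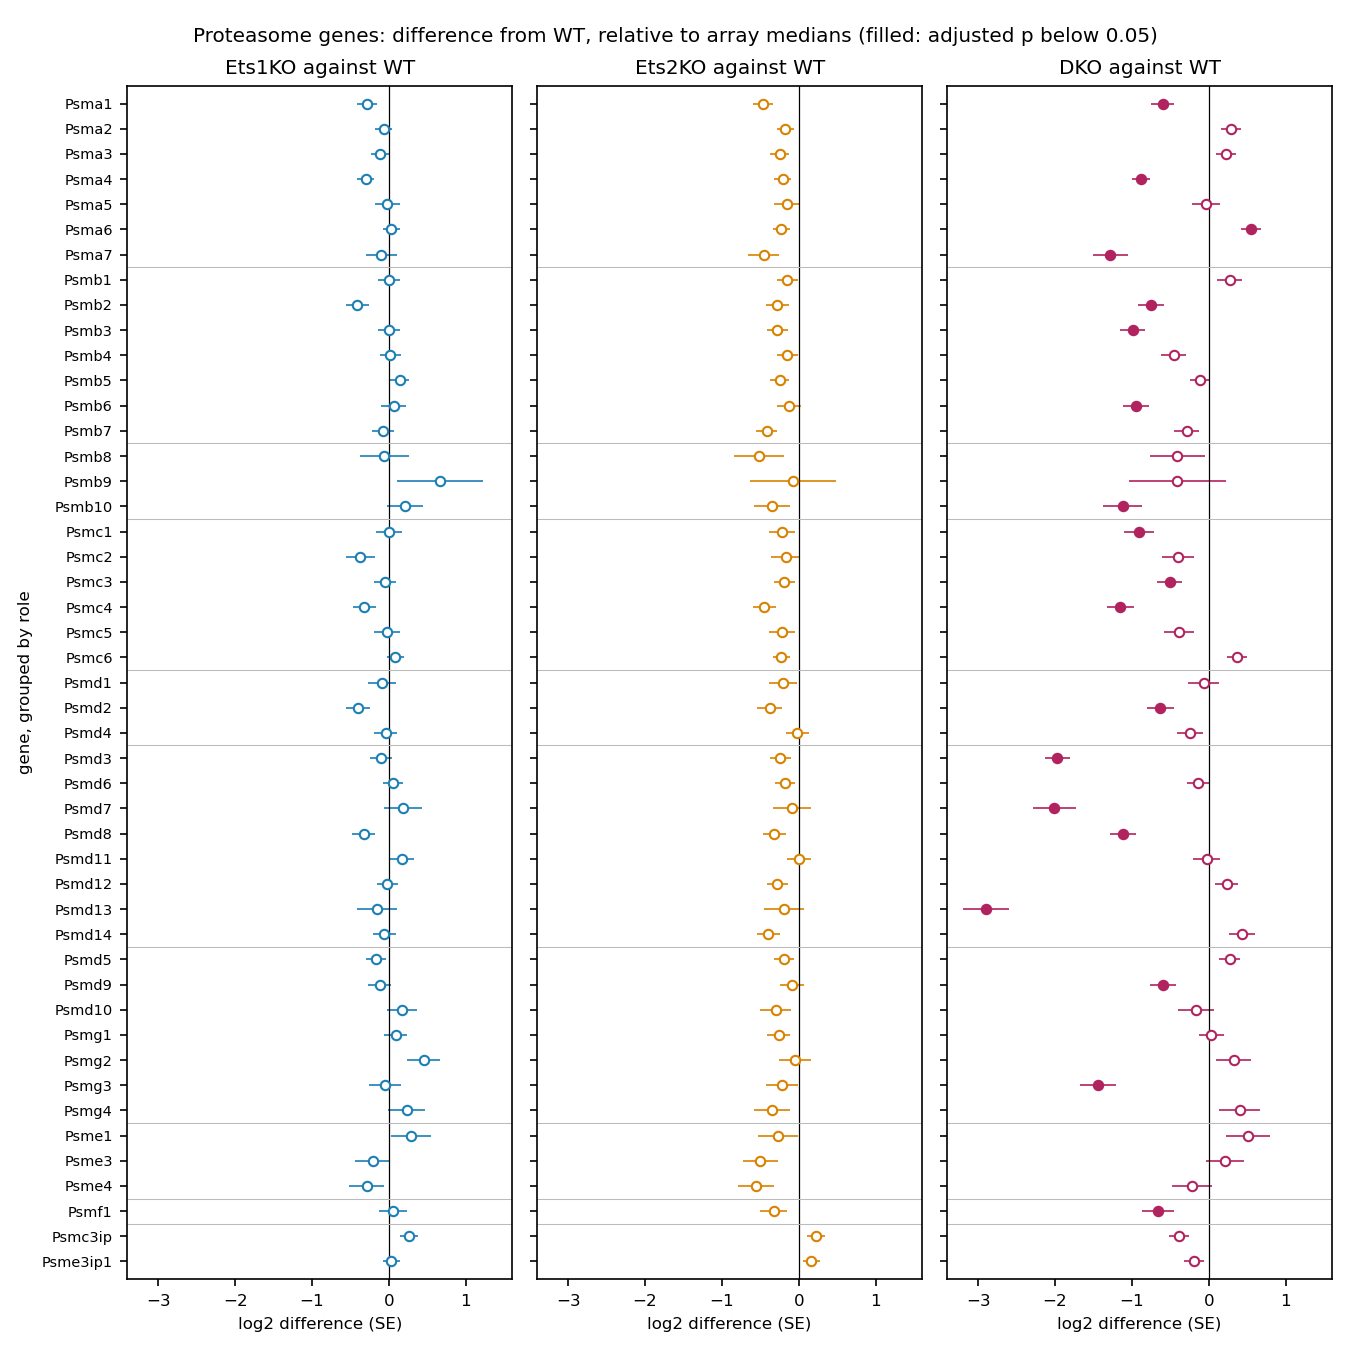
Log2 difference from WT (horizontal, relative to array medians, bars are ± 1 SE of limma) of each of the 47 genes (vertical, grouped by role) in Ets1KO, Ets2KO and DKO. Filled points are called at an adjusted p below 0.05, which holds for 0, 0 and 19 genes; the Ets2KO points sit slightly left of 0 in 45 of 47 genes, and the DKO points spread from -2.90 to 0.55.

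In the arrays labelled DKO the proteasome genes moved apart, with strong falls in part of the lid and weaker falls elsewhere, while other subunits stayed at or above their WT values. Relative to array medians 18 of 47 genes fell and 1 rose against WT, where 12% of all genes fell and 16.4% rose (28.3% called either way). The median difference was -0.39 over the 47 and -0.40 over the 31 constitutive subunits, against 0.11 over all genes. Of the 47 differences 34 were below 0 (43.5% of all genes). As deposited 39 fell and none rose, where 43.6% of all genes fell and 45.9% were called either way, and all 47 were below 0 (80.9% of all genes). The groups did not overlap for 30 of 47 (63.8%, against 52.3% of all genes), and as deposited for 44 (93.6%, against 63.6%). On the relative scale the sorted values of DKO lay above those of WT in the upper range, by 0.15 at the 75th percentile and 0.24 at the 90th.

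Within the 19S lid, 4 of 8 genes fell (50%, against 12% of all genes). Psmd13, a structural subunit of the lid, read 1.45, 1.42 and 1.22 in WT, 1.13, 1.17 and 1.30 in Ets1KO, 1.52, 1.41 and 0.58 in Ets2KO, and -1.18 and -1.89 in DKO. Both DKO arrays lay well below all 9 others. The difference from WT was -2.90 (SE 0.30, adjusted p = 0.000423, -3.62 as deposited), and those from Ets1KO and Ets2KO were -2.74 and -2.71. Psmd7, the lid partner of the deubiquitinase Psmd14, read 1.85, 1.78 and 0.95 in WT and -0.35 and -0.61 in DKO, a difference of -2.01 (SE 0.28, adjusted p = 0.00155, -2.73 as deposited). Psmd3, a scaffold subunit of the lid, read 2.24, 2.13 and 1.77 in WT and 0.11 and 0.04 in DKO, a difference of -1.97 (SE 0.16, adjusted p = 0.000213, -2.69 as deposited). Neither gene's DKO arrays came near those of any other group, where Psmd7 spanned 0.95 to 1.85 and Psmd3 1.67 to 2.24. Psmd8 also fell, by 1.12.

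The other 4 lid genes were not called on their brightest probe sets. Psmd14, which removes ubiquitin from the substrate, read 3.48, 3.42 and 3.65 in WT, 3.31, 3.26 and 2.79 in Ets2KO and 4.00 and 3.89 in DKO. The DKO arrays were the highest of the 11, but the difference from WT was not called (0.43, SE 0.17, adjusted p = 0.0904, -0.29 as deposited). Psmd12 differed from WT by 0.23, Psmd11 by -0.03 and Psmd6 by -0.14. Of the other 3 probe sets of Psmd11, however, 1 fell by 0.95 and 1 by 0.59 (adjusted p over probe sets = 0.0249 and 0.036), and the last gave 0.08. The mean of the 8 lid genes was 2.29 to 2.60 in WT, 2.42 to 2.47 in Ets1KO, 2.01 to 2.42 in Ets2KO and 1.51 to 1.59 in DKO. Across the 31 constitutive subunits the SD of the group means was 0.57 in WT, 0.58 in Ets1KO, 0.57 in Ets2KO and 1.25 in DKO. A single such SD mixes probe set brightness with expression, so it is read only between groups. It was not taken over other genes, so whether they moved apart as much in DKO was not tested. The median SD between replicate arrays of these genes was 0.12, 0.10, 0.20 and 0.14 in the same order.

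**Figure D2:**
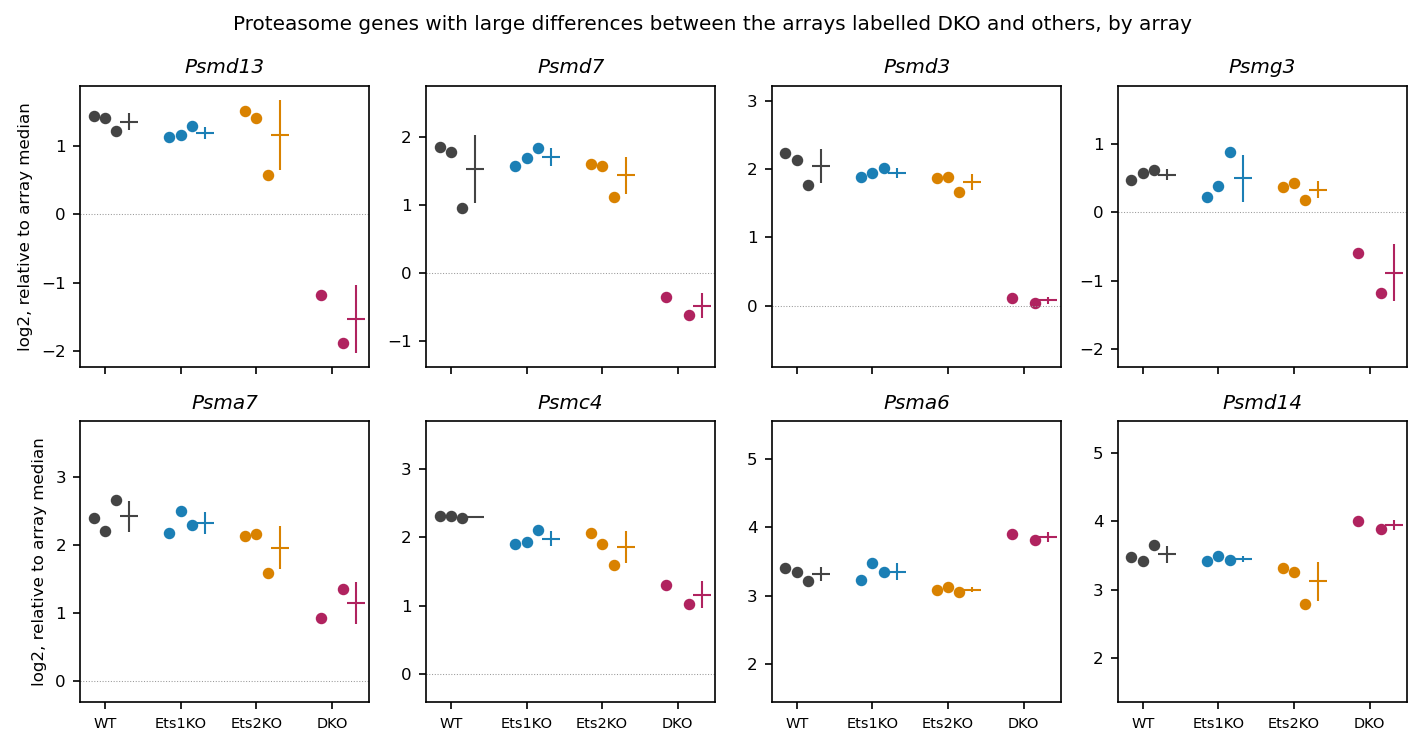
Value in each of the 11 arrays (vertical, log2 relative to the array median, panels share a span but not an origin) of 8 genes by group. Points are arrays and the line beside them is the mean ± SD (n = 3, and 2 for DKO); Psmd13, Psmd7, Psmd3 and Psmg3 lie at 0.11 or lower in both DKO arrays, and Psma6 and Psmd14 at 3.81 or higher.

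In the base, 3 of 6 ATPases (50%, against 12% of all genes) fell, namely Psmc1, Psmc3 and Psmc4. Of 3 other base subunits 1 fell (33.3%), the scaffold Psmd2 (-0.63). Psmc4 read 2.32, 2.31 and 2.29 in WT and 1.30 and 1.02 in DKO, with no overlap (-1.15, SE 0.17, adjusted p = 0.00183, -1.87 as deposited). Its second probe set gave -0.42 and was not called (adjusted p over probe sets = 0.208). Psmc1, whose promoter holds the long ETS match, fell by 0.91 (SE 0.19, adjusted p = 0.00752). On their brightest probe sets Psmc6 differed by 0.36 (adjusted p = 0.0573), and Psmc2 by -0.40 and Psmc5 by -0.39 (adjusted p = 0.178 and 0.152). The second probe set of Psmc2 fell by 0.88 (adjusted p over probe sets = 0.00773). The other probe sets of Psmc6 rose by 0.65 and 0.45 (adjusted p over probe sets = 0.00867 and 0.0467), but were at -0.07 and -0.27 as deposited.

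In the 20S core, 3 of 7 alpha ring genes fell (42.9%, against 12% of all genes), 1 rose (14.3%, against 16.4%) and 3 were not called. Psma7 read 2.39, 2.21 and 2.66 in WT and 0.93 and 1.36 in DKO, both DKO arrays the lower (-1.28, SE 0.23, adjusted p = 0.00435, -2.0 as deposited), and a second probe set gave -1.30. Psma4 fell by 0.88 and Psma1 by 0.60. Psma6 read 3.40, 3.34 and 3.21 in WT and 3.91 and 3.81 in DKO. It was the 1 rise among the 47 relative to array medians (0.55, SE 0.13, adjusted p = 0.0132), but the difference was -0.17 as deposited and 0.34 with quantile normalization, neither of them called, and the call is lost without DKO replicate 1 or when only WT and DKO arrays are fitted (adjusted p = 0.0948). The other probe sets of Psma6 gave 0.25 and 0.73 (adjusted p over probe sets = 0.161 and 0.00579), at -0.47 and 0.01 as deposited. In the beta ring 3 of 7 constitutive genes fell (42.9%, against 12% of all genes). These were Psmb2 (by 0.75), Psmb3 (by 0.99, with 0.22 on its other probe set) and Psmb6. Psmb1 (0.27), Psmb4 (-0.46), Psmb5 and Psmb7 were not called on their brightest probe sets. Another probe set of Psmb1, at -2.85 to -2.62 in WT, rose by 0.81 (adjusted p over probe sets = 0.00343, 0.09 as deposited). The last of Psmb1 gave -0.17.

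Of the assembly chaperones, 2 of 7 fell (28.6%, against 12% of all genes) and none rose, so the share called either way was near the background of 28.3%. Psmg3, which helps to build the alpha ring, read 0.47, 0.58 and 0.62 in WT and -0.59 and -1.18 in DKO, with both DKO arrays below all others (-1.44, SE 0.23, adjusted p = 0.00267, -2.16 as deposited). Psmd9, a chaperone of the base, fell by 0.60. The inhibitor Psmf1 fell by 0.66 (adjusted p = 0.0397), and the activators Psme3 (0.21) and Psme4 (-0.22) were not called on their brightest probe sets. The other probe sets of Psme4 gave -1.22, which was called (adjusted p over probe sets = 0.00452), and -0.59, which was not.

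The short ETS form stood in genes that fell and in genes that did not. CCGGAA was found in 4 of the 14 genes with a window that fell in DKO against WT (Psmc1, Psmd2, Psmd13 and Psmf1), in the 1 that rose (Psma6) and in 13 of 25 that were not called. The median difference was -0.20 over the 18 genes with it and -0.43 over the 22 without.

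The DKO comparisons share their arrays, so the counts that follow repeat the same DKO values against other groups. Against Ets1KO 15 genes fell and 2 rose (background 11.3% and 17.4%, 28.7% either way), or 0 higher and 40 lower as deposited (background 42.8% lower, 44.5% either way) and 0 and 19 with quantile normalization. The groups did not overlap for 32 of 47 (background 58.3%), and 34 differences were below 0 (40.2%). As deposited these counts were 45 (67.2%) and 47 (82%). The falls of largest size were Psmd13 (-2.74), Psmd7 (-2.18), Psmd3 (-1.87), Psmg3 (-1.39), Psmb10 (-1.33) and Psma7 (-1.18). The rises were Psma6 (0.51, adjusted p = 0.0174) and the base chaperone Psmd5 (0.44, adjusted p = 0.0462), at -0.25 and -0.32 as deposited, and with quantile normalization neither passed. The Psma6 call is lost without Ets1KO replicate 1, Ets1KO replicate 3 or DKO replicate 1, and that of Psmd5 without any of 9 of the 11 arrays, the exceptions being Ets2KO replicate 3 and WT replicate 3.

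Against Ets2KO 14 genes fell and 7 rose (background 13.2% and 17.1%, 30.3% either way), or 0 higher and 30 lower as deposited (background 43.3% lower, 46.3% either way) and 4 and 16 with quantile normalization. The groups did not overlap for 30 of 47 (background 55.4%), and 26 differences were below 0 (42.3%). As deposited these counts were 38 (64.2%) and 43 (80.7%). The rises of largest size were Psmd14 (0.83), Psma6 (0.77), Psmc6 (0.59), Psmd12 (0.50), Psma3 (0.48) and Psma2 (0.47). Psmd14 and Psma6 were at 0.12 and 0.07 as deposited, and Psmc6, Psmd12, Psma3 and Psma2 lay below 0 there (-0.11, -0.20, -0.23 and -0.24). The call of Psmd12 is lost without any of 8 of the 11 arrays, the exceptions being WT replicates 1 and 3 and Ets2KO replicate 1. That of Psma2 is lost without Ets2KO replicate 2, DKO replicate 1 or DKO replicate 2, that of Psma3 without Ets2KO replicate 2 or DKO replicate 1, and all 3 with quantile normalization (adjusted p = 0.124, 0.15 and 0.176 for Psmd12, Psma2 and Psma3). The falls of largest size were Psmd13 (-2.71), Psmd7 (-1.91), Psmd3 (-1.73), Psmg3 (-1.22), Psmb6 (-0.82) and Psma7 (-0.82), the last of which is lost without Ets2KO replicate 1, Ets2KO replicate 2 or DKO replicate 1. Without Ets2KO replicate 2 the count of calls is 13 in place of 21, and with only the Ets2KO and DKO arrays in the fit it is 7.

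The effect of Ets2 loss in cells without Ets1 (DKO minus Ets1KO) was set against that in cells with it (Ets2KO minus WT) as an interaction. Relative to array medians it was called in 8 of the 47 genes (17%), against 14.5% of all genes, a share near the background on that scale. The largest was that of Psmd13, whose difference was -0.19 with Ets1 and -2.74 without it (interaction -2.54, SE 0.40, adjusted p = 0.0053). The 4 lid genes Psmd3, Psmd7, Psmd13 and Psmd14 are among the 8, and no inducible gene is. As deposited 24 of the 47 were called, all lower (51.1%, against 30.1% of all genes lower and 31.6% either way). Of the 4 inducible genes 1 was among them.

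The probe sets of a gene often disagreed in DKO, as seen in the 20 of the 47 genes with several. In DKO against WT the median range between the probe sets of a gene was 0.80, against 0.08 in Ets1KO and 0.10 in Ets2KO, and over the 4785 genes of this kind it was 0.90. For 3 of the 20 (15%, against 15.2% of such genes) probe sets moved in opposite directions by over 0.5. Psmd4, the ubiquitin receptor of the base, had -0.25 on its brightest probe set, -3.32 on a second (adjusted p over probe sets = 2.92e-05) and 0.54 on another (0.0198). Psma1 had -0.60 and 0.57, and the 4 probe sets of Psmf1 gave -0.66, -0.69, 0.21 and 0.59. For Psmd13 a second probe set gave -2.74 but another 0.18, and for Psmd7 the second gave 0.42, so the falls of both rest on some of their probe sets. Probe sets that went up or stayed were often dim, lying below the array median in WT for Psmd13 (-1.62 to -1.40), Psmd7 (-1.80 to -1.55), Psma1 (-2.36 to -2.13) and Psmd4 (-1.88 to -1.56), and their part in the disagreement was not tested. Psmd3 and Psmg3 have 1 probe set each. Against Ets2KO, opposite moves were found in Psmd4 (-3.29 and 0.71) and Psmb3 (-0.71 and 0.56), and against Ets1KO in Psmd4 alone (-3.34 and 0.85).

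**Figure D3:**
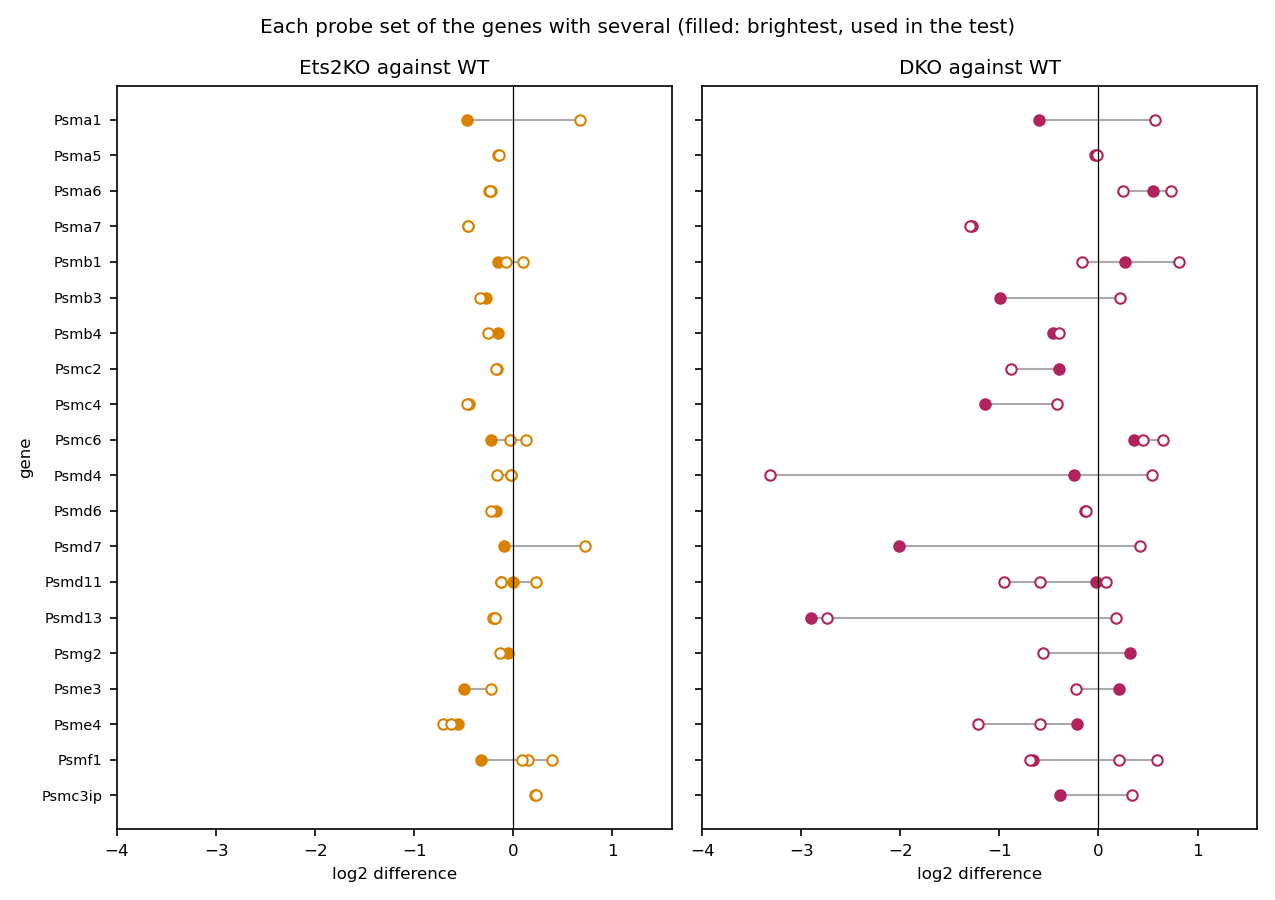
Log2 difference from WT (horizontal, relative to array medians) of every probe set of the 20 genes with several (vertical), in Ets2KO and DKO. Filled points are the brightest probe set, used in the tests, and grey lines join the probe sets of a gene; in DKO the lines are long, reaching from -3.32 to 0.54 in Psmd4, and in Ets2KO most are short.

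Of the 4 inducible genes, Psmb10, the counterpart of Psmb7, was the 1 that fell in DKO relative to array medians. As deposited, Psmb8 fell against WT too (-1.13, adjusted p = 0.0259), and Psmb8 and Psmb9 fell against Ets1KO (-1.11 and -1.82). The mean values of Psmb8 and Psmb9 stood at the percentiles 4.78 and 10.3 of all genes, and the table gives no detection call, so they may not be above background. Psmb10 read 0.66, 0.93 and 0.02 in WT, 0.59, 0.87 and 0.78 in Ets1KO, 0.21, 0.01 and 0.32 in Ets2KO, and -0.74 and -0.42 in DKO. Both DKO arrays were below all others. The difference was -1.12 from WT (SE 0.25, adjusted p = 0.0116, -1.84 as deposited), -1.33 from Ets1KO (adjusted p = 0.00585) and -0.76 from Ets2KO (adjusted p = 0.0485). The call against WT is lost without DKO replicate 1 or with only the WT and DKO arrays in the fit (adjusted p = 0.0821), and that against Ets2KO without any of 9 of the 11 arrays, the exceptions being WT replicates 2 and 3.

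Psmb8, which takes the place of Psmb5, read -2.06, -2.18 and -2.77 in WT, -3.08, -1.83 and -2.28 in Ets1KO, -3.08, -2.95 and -2.55 in Ets2KO and -2.64 and -2.86 in DKO. The groups overlapped throughout, with differences from WT of -0.06, -0.52 and -0.41 (SE 0.32, 0.32 and 0.36, adjusted p = 0.977, 0.402 and 0.419). Psmb9, which takes the place of Psmb6, read -2.57, -2.03 and -2.14 in WT and -2.39, -2.57 and -2.0 in Ets2KO, and -2.40 and -2.90 in DKO. Its Ets1KO arrays read -3.09, -0.41 and -1.26, so that group held both the lowest and the highest values of all 11 arrays. The difference of Ets1KO from WT was 0.66 (SE 0.56, adjusted p = 0.760), and 0.07 to 1.41 with single arrays left out. The same Ets1KO replicate 1 was the lowest of its group for Psmb8 and Psmb10. Tap2, the neighbour of Psmb8, read -1.30, 0.46 and 0.34 in those Ets1KO arrays, and Tap1 read -1.63, -0.81 and -1.25. Other interferon genes were mixed. Gbp2 (-2.44, -2.93 and -2.99) and Stat2 (-2.52, -2.96 and -2.90) were highest in Ets1KO replicate 1. Irf9 (-2.03, -1.83 and -1.88) and Rsad2 (-3.07, -2.87 and -2.94) were lowest there, by small amounts.

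Psme1, a chain of the interferon-induced activator, read 2.09, 2.26 and 1.97 in WT, 2.41, 2.69 and 2.11 in Ets1KO, 1.57, 1.72 and 2.24 in Ets2KO and 2.21 and 3.03 in DKO. All 4 groups overlapped with one another, and differences from WT were 0.29, -0.27 and 0.51 (adjusted p = 0.766, 0.614 and 0.217). The probe set shared by Psme2 and Psme2b, which is not a member, gave 0.20, -0.10 and -0.61. The fall in DKO was called (adjusted p over probe sets = 0.0462, -1.33 as deposited). Against Ets1KO the DKO difference of this probe set was -0.81 and called, and against Ets2KO -0.51 and not (adjusted p over probe sets = 0.0153 and 0.0862).

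The constitutive counterparts differed among themselves. Psmb6, the caspase-like subunit, read 2.76, 2.84 and 2.85 in WT, 2.90, 2.91 and 2.84 in Ets1KO, 2.85, 2.70 and 2.53 in Ets2KO and 1.6 and 2.14 in DKO. It fell in DKO (-0.95, SE 0.17, adjusted p = 0.00459, -1.67 as deposited), and with only the WT and DKO arrays in the fit the adjusted p was 0.0541. Psmb5, the chymotrypsin-like subunit, read 3.14, 3.16 and 3.18 in WT, 3.30, 3.29 and 3.31 in Ets1KO, 3.04, 2.96 and 2.73 in Ets2KO and 2.93 and 3.14 in DKO. Its replicates lay close together in WT and Ets1KO, and its differences from WT were 0.14, -0.25 and -0.12, none called (adjusted p = 0.760, 0.294 and 0.531). Psmb7, the trypsin-like subunit, gave -0.08, -0.42 and -0.29 (adjusted p = 0.899, 0.177 and 0.212), and all 3 of its Ets2KO arrays (3.25, 3.17 and 2.88) lay below the lowest of WT (3.48). As deposited, Psmb5 and Psmb7 fell in DKO by 0.84 and 1.01 (adjusted p = 0.000871 and 0.000874).

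**Figure D4:**
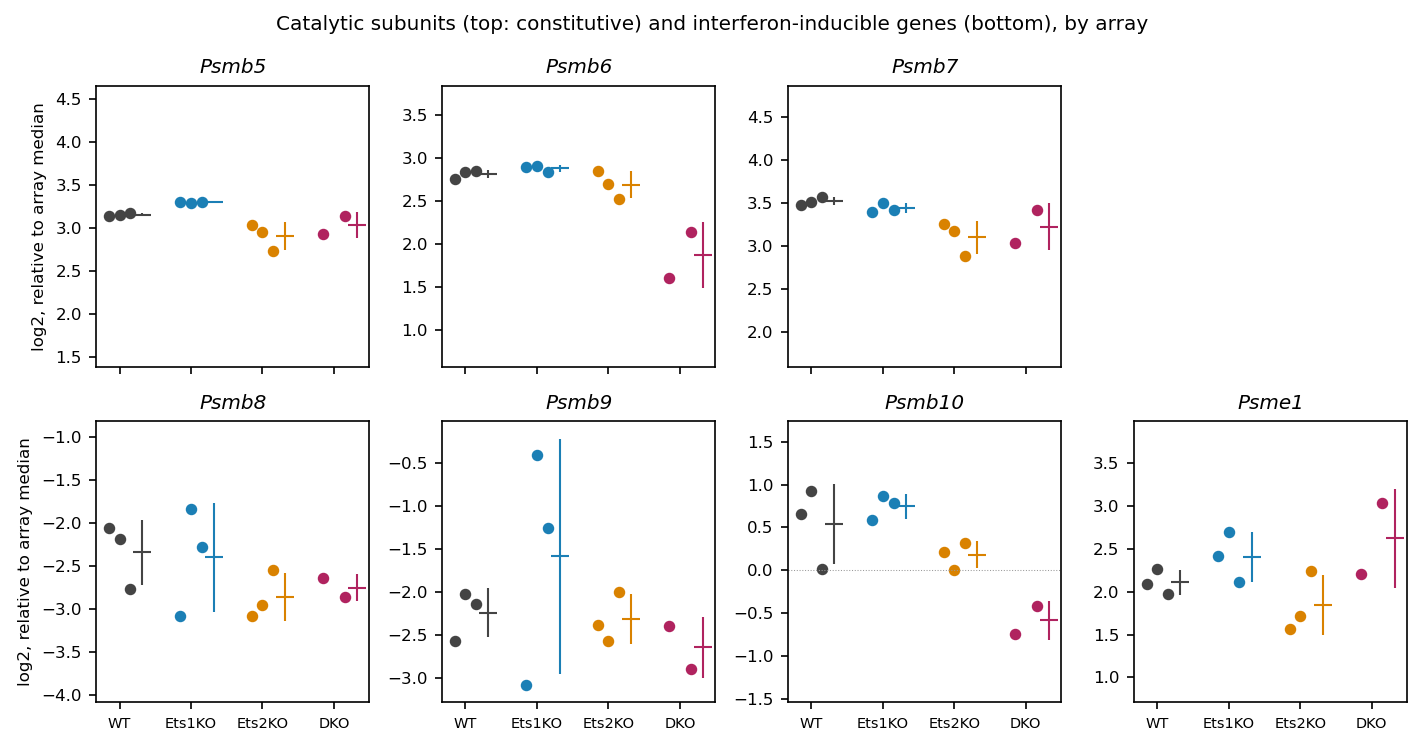
Value in each of the 11 arrays (vertical, log2 relative to the array median, panels share a span but not an origin) of the constitutive catalytic subunits Psmb5, Psmb6 and Psmb7 (top) and of the inducible genes Psmb8, Psmb9, Psmb10 and Psme1 (bottom). Points are arrays and the line beside them is the mean ± SD (n = 3, and 2 for DKO); Psmb6 and Psmb10 are lower in both DKO arrays than in all others, and Psmb9 runs from -3.09 to -0.41 within Ets1KO.

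The mean of the 4 inducible genes minus the mean of the 31 constitutive ones, which has meaning only as a difference between arrays and includes the dim Psmb8 and Psmb9, was -3.27 ± 0.18 in WT, -2.90 ± 0.52 in Ets1KO, -3.33 ± 0.44 in Ets2KO (SD, n = 3) and -3.09 ± 0.05 in DKO (SD, n = 2). The DKO arrays (-3.12 and -3.05) lay inside the range of WT (-3.44 to -3.07) or next to it, and inside that of the 2 other groups. No test was made of this value. With medians over genes in place of means, the difference of DKO from WT was -0.60 where the means gave 0.18, so its direction depends on how the few inducible genes are averaged.

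Against the single losses the same genes gave the following differences. DKO differed from Ets1KO by -0.35 for Psmb8, -1.06 for Psmb9 (SE 0.63, adjusted p = 0.237) and 0.22 for Psme1, and by -0.26 for Psmb5, -0.21 for Psmb7 and -1.02 for Psmb6, of which Psmb6 alone passed (SE 0.17, adjusted p = 0.00372). Without Ets1KO replicate 1 the Psmb9 difference was -1.82 and was called. DKO differed from Ets2KO by 0.11 for Psmb8, -0.33 for Psmb9 and 0.78 for Psme1 (SE 0.29, adjusted p = 0.0703), and by 0.13 for both Psmb5 and Psmb7, both of which were at -0.58 and called as deposited. The Psme1 difference was called without Ets2KO replicate 3 or DKO replicate 1. Ets2KO differed from Ets1KO by -0.46 for Psmb8, -0.73 for Psmb9 (SE 0.56, adjusted p = 0.470), -0.57 for Psmb10 and -0.56 for Psme1, and by -0.39 for Psmb5, -0.19 for Psmb6 and -0.34 for Psmb7, none of them called.

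The wider ubiquitin and proteasome machinery gave no calls in the single losses and calls in both directions in DKO. Of 13 measured genes of proteasome assembly and transcription control, 2 fell and 3 rose in DKO against WT (15.4% and 23.1%, against 12% and 16.4% of all genes), with a median of 0.29 against 0.11 over all genes. Pomp, the maturation factor of the 20S core, fell by 0.77 (SE 0.17, adjusted p = 0.0101), and against Ets1KO and Ets2KO by 0.60 and 0.82. The proteasome-bound ubiquitin ligase Ube3c fell by 0.65 (adjusted p = 0.0101). Ngly1, the glycanase that processes the factor Nfe2l1, rose by 0.77 (adjusted p = 0.0101) but was at 0.05 as deposited. Nfe2l1, which drives transcription of proteasome genes, differed from WT by -0.81 (adjusted p = 0.0621) and fell against Ets2KO by 1.24 (adjusted p = 0.0116). Akirin2, needed for nuclear import of proteasomes, rose against Ets1KO by 0.70 relative to array medians and was at -0.06 as deposited. Bach1, a repressor at antioxidant elements, rose against Ets1KO by 1.44 and against Ets2KO by 1.04 (0.68 and 0.34 as deposited, neither called there).

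Of 11 measured ubiquitin and shuttle genes, 3 fell and 2 rose in DKO against WT (27.3% and 18.2%, against 12% and 16.4% of all genes). Nploc4, a cofactor of the segregase Vcp, read -1.76 against WT (SE 0.21, adjusted p = 0.000868), -1.73 against Ets1KO and -1.62 against Ets2KO. Ufd1, its partner, fell by 0.67 against WT (adjusted p = 0.0123), and Vcp itself by 0.67 against Ets2KO. Nbr1, an autophagy receptor, rose by 0.72 against WT and 0.66 against Ets1KO relative to array medians, and was at 0.00 and -0.10 as deposited. Zfand5, an activator of the proteasome, rose by 0.72 against Ets1KO, and the shuttle Ubqln1 by 0.54 against Ets2KO, at -0.04 and -0.17 as deposited.

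Of 19 measured genes of MHC class I presentation and interferon signalling, 2 fell and 2 rose in DKO against WT (21.1%, under the 28.3% of all genes). Erap1, the peptidase that trims MHC class I peptides, fell by 1.59 (SE 0.28, adjusted p = 0.00434), and by 1.03 against Ets1KO. Stat2, an interferon signal transducer, fell by 1.44 (SE 0.33, adjusted p = 0.0123), and by 1.16 and 1.57 against Ets1KO and Ets2KO. B2m, the light chain of MHC class I, rose by 0.50 against WT and 0.65 against Ets1KO, and the chaperone Canx by 0.61 against Ets2KO, but these were at -0.22, -0.11 and -0.09 as deposited. In the single losses, where none of these lists had a call, the largest differences from WT were those of Bach1 (-0.66), Zfand5 (-0.54) and Gbp2 (-1.65, SE 0.95) in Ets1KO and of Ngly1 (0.67), Rad23b (-0.70) and Erap1 (-0.88) in Ets2KO. Those of Ets2KO from Ets1KO were -0.48 for Uchl5, 0.52 for Zfand5 and 1.40 for Gbp2.

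Marker lists of other cell types had 1 call in DKO against WT, that of Csf1r. The fibroblast list (5 of 6 measured) averaged 1.62 and 2.21 in the DKO arrays, against 0.69 to 0.95 in WT, 0.49 to 1.04 in Ets1KO and 0.11 to 0.89 in Ets2KO, and all 5 of its differences from WT were above 0 with none called. Against Ets2KO the collagens Col1a1 (3.43) and Col1a2 (2.27) and the smooth muscle actin Acta2 (3.71) were called higher. Acta2 read 5.31 and 1.82 in the DKO arrays. Of the 3 endothelial genes measured, Eng (-2.26) was called lower, while Kdr (-0.18) and Flt1 (1.56) were not called. The smooth muscle list (4 of 7 measured) averaged 1.30 and -0.27 in DKO and -0.31 to 0.93 in WT. The macrophage and leukocyte list (5 of 10 measured) averaged -2.61 to -2.23 in every array, and its member Csf1r was called higher in DKO than in WT by 0.67 (-0.05 as deposited). The part of these cell types in the proteasome values was not tested.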

How the data were processed

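The deposited table holds log2 probe-set values made with RMA, per the submitters' processing notes; no source names its version or settings. The number of arrays limits the precision. A gene was represented by its probe set with the highest mean, from the 18824 probe sets with 1 symbol (549 had several and 1150 were not listed), which left 11015 genes. Each array's median over these genes was subtracted. The median over all probe sets was tried first, and this choice was made after its counts of calls were seen; both are reported. The limma package (3.58.1, under R 4.3.3) was used to fit group means on 11 arrays (7 residual degrees of freedom, prior 2.14), with Benjamini-Hochberg adjustment over all genes in each of 6 pairwise comparisons and the interaction, and a call at an adjusted p below 0.05. Every adjusted p in the text is from this limma fit unless another fit is named; those of other probe sets are adjusted over all probe sets. Tested on simulated data with 100 changed genes a size, the fit recovered 32% of genes changed by 1 log2 unit and 89% of those changed by 3 in DKO against WT. Promoters were searched and figures drawn with Python 3.11.15 and matplotlib 3.10.9.

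The proteasome genes, marker lists and pathway lists were chosen with earlier results of these data known. Named in every comparison are the inducible genes and their counterparts, with up to 6 called rises and 6 falls of largest size whose groups do not overlap, or else the 2 largest differences, and up to 3 genes of each pathway list. Other members were named for their role after their values were seen. Genes most like the constitutive mean are not given, because the DKO arrays stand apart and no pooled correlation was made. Exact permutation of 3 against 3 arrays cannot go below p = 0.1. The alternatives tried are given with their effect in the closing section.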

Additional observations from a re-analysis of the deposited data

Results flagged for a closer look

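The difference made by Cre and Ets2 loss in cells without Ets1 (DKO minus Ets1KO) was not the same as in cells with Ets1 (Ets2KO minus WT) for 8 of the 47 genes. This is by the interaction term of the limma fit relative to array medians, with 14.5% of all genes called. As deposited it was called in 24 of the 47, with 31.6% of all genes. All 8 rest on the arrays labelled DKO. Their brightest Ets1 and Ets2 probe sets, and further Ets1 probe sets, go against the label, while another for Ets1 does not.

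For Psmd13 the interaction was -2.54 (SE 0.40, adjusted p = 0.0053). Psmd7 gave -2.09 (adjusted p = 0.00848), from -0.09 with Ets1 and -2.18 without it. Psmd3 gave -1.63 (adjusted p = 0.00248), from -0.24 and -1.87. Among genes outside the lid, Psmg3 gave -1.17 (adjusted p = 0.0363), Psmb6 gave -0.89 (adjusted p = 0.0356), and Psmc3ip, a recombination cofactor that is no subunit, gave -0.87 (adjusted p = 0.0133). Both positive interactions were lost as deposited: that of Psma6 was 0.74 (adjusted p = 0.0226) and -0.01 as deposited, and that of Psmd14 was 0.89 (adjusted p = 0.0336) and 0.14 as deposited.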

How the results depend on the processing

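The values as deposited changed most. With them 39 genes were called in DKO against WT (19 relative to array medians) and 40 against Ets1KO (17). Direction turned for Psma6 against WT (-0.17) and Ets1KO (-0.25), for Psmd5 against Ets1KO (-0.32), and against Ets2KO for Psmb5 (-0.58), Psmb7 (-0.58), Psmc6 (-0.11), Psmd12 (-0.20), Psma3 (-0.23) and Psma2 (-0.24), by the construction of the scale, since each array's median is no longer subtracted. With only the arrays compared in the fit, 10 genes were called against WT and 7 against Ets2KO (21), from fewer arrays. With array weights, 1 was called in Ets2KO against WT and 13 in Ets2KO against Ets1KO (0 in both otherwise). The cause was not tested. Apart from the deposited scale, counts under other settings stand without the share of all genes called in the same fit. They are therefore read against no background. With medians over genes, inducible minus constitutive was -0.60, -0.97 and -0.44 in DKO against WT, Ets1KO and Ets2KO (0.18, -0.18 and 0.24 with means).

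With 1 array left out, 13 to 21 genes were called in DKO against WT, 12 to 19 against Ets1KO and 13 to 22 against Ets2KO, and 0 in the other comparisons. Inducible minus constitutive ran from -0.46 to 0.06 in DKO against Ets1KO. Under these omissions 728 single-gene differences kept their side of the threshold, 39 lost a call and 3 gained one. No called difference turned, but some that were not called changed sign, such as Psmb8 in Ets1KO against WT (-0.34 to 0.28). With the replicate block the counts were 17, 13 and 15 in DKO against WT, Ets1KO and Ets2KO and 0 elsewhere. Deviations from group means correlated at -0.32 to 0.10 between arrays of the same replicate number. With so few arrays a group, these correlations cannot settle whether the numbers pair the samples. With the median over all probe sets, chosen after seeing the data, the counts were 19, 19 and 22.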
